A study of Oryza sativa with 9 samples.

Results

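In rice roots, 11 of 57624 nuclear loci were expressed above a floor in every fresh water (FW) library of 2 strains. In every salt water (SW) library they were at least 4-fold lower. They were chosen on the deposited FPKM values, which are fragment counts scaled by transcript length and by the reads mapped in each library. A locus was taken when its lowest FW value was at least 5 FPKM and at least 4 times its highest SW value. No upper limit was set on the SW level itself. The levels in SW and FW are therefore what chose these genes, and they are given below as a description with no test. Of the 11435 loci that passed the floor of 5 FPKM in all 6 FW libraries, the other loci missed the 4-fold condition. The mirrored rule, with SW and FW exchanged, was met by 27 loci.

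The libraries came from roots harvested 1 month after planting. SR86, Sea Rice 86, is a salt-tolerant rice domesticated from wild plants of a seaside site, and it was grown in SW (3 libraries) and in FW (3 libraries). R1 is described by the study as a cross of japonica and indica with low salt tolerance, and it was grown in FW (3 libraries). The labels call both cultivars japonica. The samples include no R1 library in SW, and the study reports that R1 does not survive in sea water. A lower level in SW than in FW is therefore known for SR86 roots only. Libraries are named by strain, water and replicate number, as in SR86 FW2.

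Plants that take up salt water meet osmotic stress, sodium and chloride ions and, as a consequence, reactive oxygen. Glutathione S-transferases (GSTs) join the small thiol glutathione to reactive compounds and so belong to the detoxifying enzymes of roots. The ubiquitin system tags proteins for breakdown: ubiquitin is made as a fusion protein and cut free, and cullins are the scaffolds of a large class of the ligases that attach it.

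All 11 loci carried an annotation in the study's own tables of genes that differed between these libraries. Of them, 6 had a named product and 5 were annotated only as expressed or hypothetical protein. The named products were an SCP-like extracellular protein, 2 GSTs, an NADP-dependent oxidoreductase, a ubiquitin fusion protein and a cullin. The 11 loci lie on 9 chromosomes.

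The group means ran from 0 to 134 FPKM in SR86 SW (median over the 11 genes 1.55 FPKM), from 6.19 to 2539 FPKM in SR86 FW (median 34.1 FPKM) and, in R1 FW, from 9.997 to 2642 FPKM (median 26.3 FPKM). The SW mean was under 1 FPKM for 4 of the genes. Without the most abundant of them, the summed level of the other genes was 13.7 to 20.9 FPKM in the SR86 SW libraries, 276 to 481 FPKM in the SR86 FW libraries and 531 to 575 FPKM in the R1 FW libraries.

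**Figure D1:**
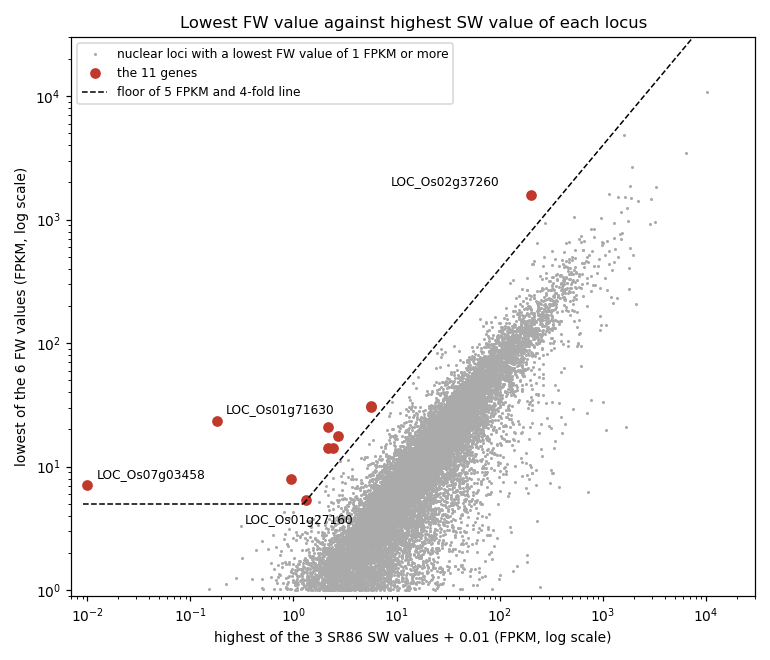
Each point is a nuclear locus, with the highest of its 3 SR86 SW values (plus 0.01 FPKM, so that 0 can be drawn) on the horizontal log axis and the lowest of its 6 FW values on the vertical log axis, both in FPKM. The 11 genes, in red, lie above the dashed floor of 5 FPKM and left of the 4-fold line, with LOC_Os07g03458 at 0 in SW, LOC_Os01g71630 far from the line and LOC_Os01g27160 in the corner.

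LOC_Os07g03458, the SCP-like extracellular protein, was listed at 0 FPKM in all 3 SR86 SW libraries. SCP-like proteins are secreted and cysteine-rich, and the pathogenesis-related PR-1 proteins of plants belong to the same superfamily. The gene had 52.4, 24.8 and 32.0 FPKM in SR86 FW1 to FW3, while R1 FW1 to FW3 had 12.8, 10.3 and 7.04 FPKM. No other locus was at 0 in every SW library and at 5 FPKM or more in every FW library, and 0 loci had 5 FPKM or more in every SW library and 0 in every FW library. Since the table holds no counts, no fold change is given against 0. On either side of the gene, LOC_Os07g03418 and LOC_Os07g03508 had identical values in every library. The authors' counting divided reads that map to several transcripts. Whether this affected the 0 of LOC_Os07g03458 was not tested.

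Of the detoxifying genes, LOC_Os10g38350 (GST) had 2.15, 1.34 and 1.2 FPKM in SR86 SW1 to SW3, 14.3, 39.0 and 23.3 FPKM in SR86 FW1 to FW3, while R1 FW1 to FW3 had 18.2, 16.1 and 14.3 FPKM. LOC_Os09g20220 (GST) had 1.57, 1.57 and 2.71 FPKM in SR86 SW1 to SW3, 45.1, 34.7 and 17.7 FPKM in SR86 FW1 to FW3, while R1 FW1 to FW3 had 27.1, 23.4 and 28.4 FPKM. The SW means of these GSTs were 6.12% and 5.997% of their SR86 FW means, and 9.66% and 7.42% of their R1 FW means. In both genes the spread within SR86 FW was wide, and the R1 FW values lay inside it.

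LOC_Os11g14910, the NADP-dependent oxidoreductase, is annotated as an enzyme that moves electrons with NADP as its cofactor. It had 5.53, 5.66 and 2.55 FPKM in SR86 SW1 to SW3, 30.5, 202 and 75.1 FPKM in SR86 FW1 to FW3, while R1 FW1 to FW3 had 123, 130 and 110 FPKM. Its SR86 FW libraries differed by up to 6.63-fold, the widest spread of the 11 genes in that group, while its R1 FW libraries differed by 1.18-fold. The SW mean was 4.47% of the SR86 FW mean and 3.78% of the R1 FW mean.

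In the ubiquitin system, LOC_Os09g31019 (ubiquitin fusion protein) had 0.54, 0.93 and 0.06 FPKM in SR86 SW1 to SW3, 34.2, 37.0 and 31.1 FPKM in SR86 FW1 to FW3, while R1 FW1 to FW3 had 8.93, 13.2 and 7.89 FPKM. Ubiquitin genes share near-identical coding sequence, and the authors' counting divided reads that map to several transcripts, so this level may include reads of other copies or lack some of its own. LOC_Os01g27160 (cullin) was the least abundant of the 11 genes in SR86 FW. It had 1.17, 1.11 and 1.31 FPKM in SR86 SW1 to SW3, 5.39, 7.73 and 5.45 FPKM in SR86 FW1 to FW3, while R1 FW1 to FW3 had 10.4, 10.6 and 9.84 FPKM. Its SW mean was 19.3% of the SR86 FW mean, the highest share among the 11 genes, and its CV in SW of 8.58% was the lowest of those not at 0.

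Among the genes with no named product, LOC_Os02g37260 (hypothetical protein) was by far the most abundant. It had 99.2, 200 and 103 FPKM in SR86 SW1 to SW3, 1571, 3720 and 2325 FPKM in SR86 FW1 to FW3, while R1 FW1 to FW3 had 2590, 3397 and 1938 FPKM. By group mean it ranked 733rd of the nuclear loci in SR86 SW, and 8th both in SR86 FW and in R1 FW. It alone held 0.0155% to 0.0309% of the summed FPKM of the SW libraries, against 0.216% to 0.516% in SR86 FW and 0.302% to 0.505% in R1 FW.

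LOC_Os01g71630 (expressed protein) had the widest gap of the genes with a value above 0 in SW. Its levels were 0.17, 0.09 and 0.04 FPKM in SR86 SW1 to SW3, 95.7, 23.6 and 25.2 FPKM in SR86 FW1 to FW3, while R1 FW1 to FW3 had 117, 120 and 111 FPKM. Its lowest FW value was 139 times its highest SW value, and for the next gene, LOC_Os06g50742, this ratio was 9.86. LOC_Os06g50742 (expressed protein) had 0.07, 2.14 and 0 FPKM in SR86 SW1 to SW3, 25.7, 33.8 and 21.1 FPKM in SR86 FW1 to FW3, while R1 FW1 to FW3 had 204, 174 and 191 FPKM. SR86 SW2 alone set its highest SW value, and the other SW libraries were near 0.

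The last 2 of this kind had smaller gaps. LOC_Os05g05100 (expressed protein) had 1.49, 2.43 and 0.73 FPKM in SR86 SW1 to SW3, 24.9, 14.6 and 14.1 FPKM in SR86 FW1 to FW3, while R1 FW1 to FW3 had 19.3, 20.4 and 18.6 FPKM. LOC_Os12g32390 (expressed protein) had 3.59, 5.59 and 5.12 FPKM in SR86 SW1 to SW3, 86.9, 63.5 and 31.1 FPKM in SR86 FW1 to FW3, while R1 FW1 to FW3 had 33.5, 44.1 and 32.7 FPKM. Their SW means were 8.68% and 7.88% of the SR86 FW means.

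**Figure D2:**
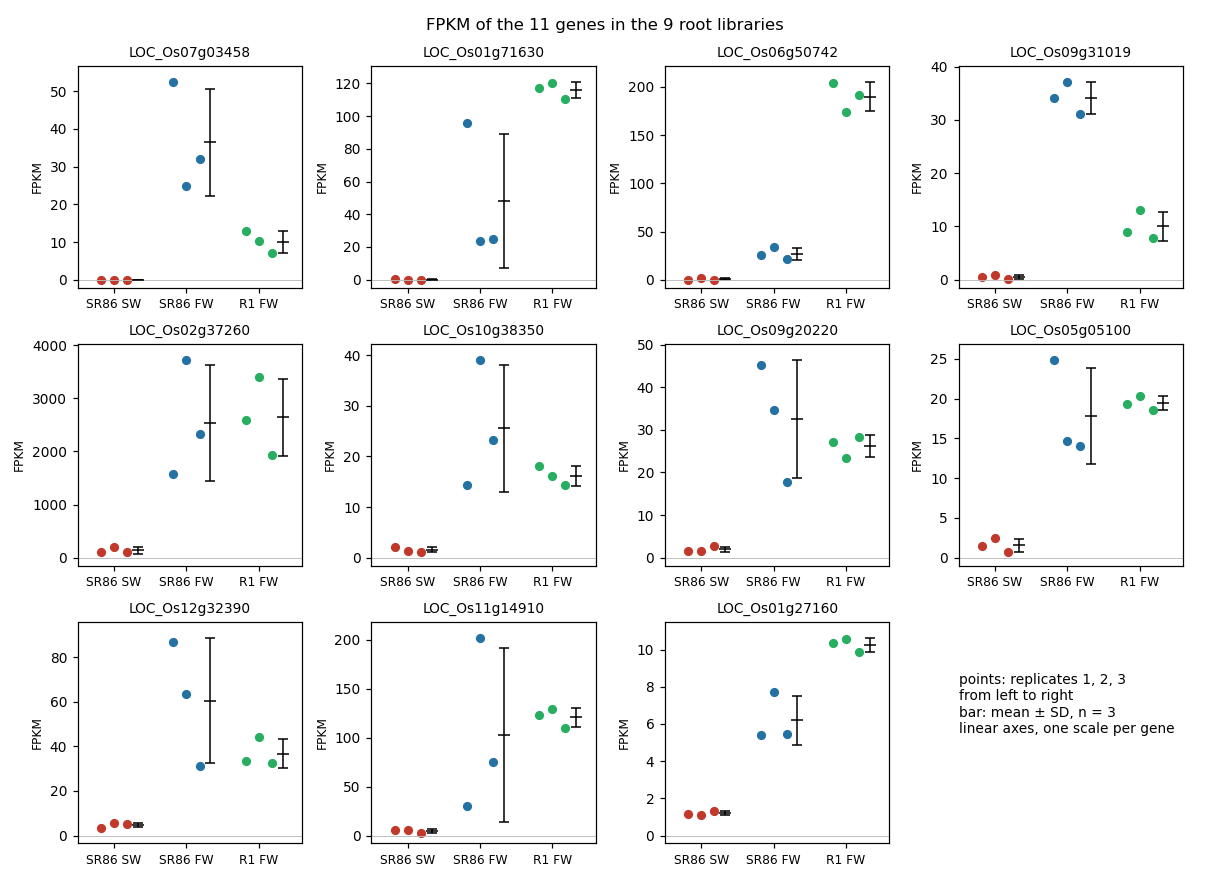
FPKM of the 11 genes in each library, with SR86 SW in red, SR86 FW in blue and R1 FW in green, replicates 1 to 3 from left to right and the mean ± SD (n = 3) beside each group, on linear axes with a scale for each gene. In every panel the red points lie near 0 and below all others, while the blue points spread most in LOC_Os01g71630 and LOC_Os11g14910 and the green points lie above all blue ones in LOC_Os01g71630, LOC_Os06g50742 and LOC_Os01g27160.

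The SW libraries were the deepest. The relative depth, read from the steps between low FPKM values and set to 1 in R1 FW1, was 1.73 to 2.38 in SR86 SW, 0.940 to 1.35 in SR86 FW and 1 to 1.66 in R1 FW. The summed FPKM was 622262 to 647564 in SR86 SW, 705081 to 726598 in SR86 FW and 641897 to 672686 in R1 FW. Root markers (2 loci) summed to 723 to 916 FPKM in SR86 SW, 255 to 819 FPKM in SR86 FW, with 519 to 556 FPKM in R1 FW. The 7 green tissue markers summed to 6.24 to 19.6 FPKM in SR86 SW, 10.5 to 68.1 FPKM in SR86 FW, with 6.31 to 10.3 FPKM in R1 FW, with SR86 FW1 the highest and at most 1 marker at 0 in any library. The features named LOC_Osm1 summed to 244 to 568 FPKM in SR86 SW, 992 to 2518 FPKM in SR86 FW, with 222 to 541 FPKM in R1 FW. Their part in the levels of the 11 genes was not tested. In bulk roots, fewer cells that express a gene cannot be told apart from less RNA per cell.

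The spread between replicates is compared here for the genes that averaged 1 FPKM or more in a group, 7 of the 11 in SR86 SW and all 11 in SR86 FW and in R1 FW. Their median CV was 33.8% in SR86 SW, 42.5% in SR86 FW and 9.91% in R1 FW. Over all nuclear loci at that level, the median CV was 17.5% in SR86 SW, 21.9% in SR86 FW and 8.49% in R1 FW. The CV was above this median for 6 of 7 genes in SR86 SW, 9 of 11 in SR86 FW and 6 of 11 in R1 FW. In SR86 FW the exceptions were LOC_Os01g27160 and LOC_Os09g31019, and in SR86 SW LOC_Os01g27160. The SR86 FW value was highest in SR86 FW1 for 5 of the genes, in SR86 FW2 for 6 and in SR86 FW3 for 0, while SR86 FW3 held the highest of the 3 for 45.0% of the nuclear loci with an SR86 FW mean of at least 1 FPKM. Among the 10 genes with any SW signal, SR86 SW2 held the highest SW value for 6. The share was 32.8% among nuclear loci with an SW mean of at least 1 FPKM. LOC_Os01g71630, LOC_Os06g50742 and LOC_Os09g31019 are below that mean, and the rule itself used the highest SW value.

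The choice of the 11 genes was close to the threshold for some. The 5 just inside the 4-fold condition were LOC_Os01g27160 (ratio of lowest FW to highest SW value 4.11), LOC_Os11g14910 (5.38), LOC_Os12g32390 (5.56), LOC_Os05g05100 (5.79) and LOC_Os09g20220 (6.54). The 5 just outside were LOC_Os10g02970, a leucine rich repeat protein (3.94), LOC_Os04g01950, a legume lectin domain protein (3.66), LOC_Os12g43430, a thaumatin (3.47), and the GSTs LOC_Os01g72170 (3.43) and LOC_Os01g27360 (3.41). The thaumatin is the most abundant of these, at 117, 180 and 273 FPKM in SR86 SW1 to SW3, 1087, 947 and 1918 FPKM in SR86 FW1 to FW3, while R1 FW1 to FW3 had 1196, 1041 and 1326 FPKM.

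At the floor of 5 FPKM, the lowest FW values just inside were 5.39 FPKM (LOC_Os01g27160), 7.04 FPKM (LOC_Os07g03458), 7.89 FPKM (LOC_Os09g31019), 14.1 FPKM (LOC_Os05g05100) and 14.3 FPKM (LOC_Os10g38350). Just outside were LOC_Os11g42989 (exo70 exocyst complex subunit, 4.29 FPKM), LOC_Os07g43260 (SKP1-like protein 1B, 4.26 FPKM), LOC_Os01g37590 (peptide transporter PTR2, 3.86 FPKM), LOC_Os05g11810 (gibberellin 2-beta-dioxygenase 1, 3.30 FPKM) and LOC_Os09g32360 (gp176, 2.77 FPKM). SKP1 is a partner of cullins in ubiquitin ligases, and gibberellin 2-oxidases inactivate the growth hormone gibberellin. LOC_Os05g11810 had 0.07, 0.30 and 0.18 FPKM in SR86 SW1 to SW3, 9.87, 3.30 and 5.74 FPKM in SR86 FW1 to FW3, while R1 FW1 to FW3 had 24.9, 26.9 and 21.9 FPKM, so SR86 FW2 alone kept it below the floor.

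All 11 genes met the rule again after the libraries were rescaled by median-ratio size factors or by quantile normalization, which let in 14 loci each. Leaving out a library can only loosen the rule, so the 11 genes had to meet it again each time, and only the number of added loci is informative. The loci that met it were then 11 for each R1 FW library, 16, 17 and 12 without SR86 FW1, FW2 and FW3, and 14, 20 and 24 without SR86 SW1, SW2 and SW3. A fold of 6 kept 7 of the genes and a floor of 10 FPKM kept 8.

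The rule asked for at least 5 FPKM in every FW library of both strains. Most loci that met the rule in a single strain failed on the other strain's level. With the SR86 FW libraries alone as FW, 35 loci met it, and of the 24 that were not among the 11, 15 had a lowest R1 FW value under 5 FPKM. With the R1 FW libraries alone, 223 met it, and of the 212 others, 163 had a lowest SR86 FW value under 5 FPKM.

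The comparison of SR86 FW with R1 FW asks whether these genes differ between the strains when no salt is present. The rule used these 6 libraries only through its lower limits on FW values. All 11 genes passed the filter of the test, which kept features averaging 0.5 FPKM or more in these libraries. The fit was on log2(FPKM + 0.5) with limma, and a call required both an adjusted p (Benjamini-Hochberg) under 0.05 and a change of 2-fold or more. The test called 3 of the 11 genes, 2 higher and 1 lower in SR86 FW. Among all 23168 features tested, 14.1% were called (6.85% higher and 7.22% lower), and of the 11435 loci with at least 5 FPKM in every FW library 6.85% were called in either direction. At an unadjusted p under 0.05, 5 of the 11 passed, against 44.1% of all features tested. The median log2 fold change was -0.11 over the 11 genes and -0.03 over all features tested.

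The largest difference was in LOC_Os06g50742 (expressed protein), which averaged 26.9 ± 6.41 FPKM in SR86 FW, against 189.99 ± 14.97 FPKM in R1 FW (SD, n = 3 each). Its log2 fold change was -2.82 ± 0.180 (SE, standard error of the fit, limma adjusted p = 0.000221), and all SR86 FW libraries lay below all R1 FW libraries. LOC_Os07g03458 (SCP-like extracellular protein) was higher in SR86 FW, with 36.4 ± 14.3 FPKM, against 10.1 ± 2.91 FPKM in R1 FW. The log2 fold change was 1.78 ± 0.322 (SE, limma adjusted p = 0.0111). LOC_Os09g31019 (ubiquitin fusion protein) was higher as well, with 34.1 ± 2.99 FPKM in SR86 FW, against 9.997 ± 2.80 FPKM in R1 FW, a log2 fold change of 1.75 ± 0.199 (SE, limma adjusted p = 0.00219). These 3 genes were called under all 14 alternative settings. Reads of both strains were mapped to 1 transcript set, so a lower level in a strain cannot be told apart from reads that map less well.

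For the other 8 genes no difference was called. LOC_Os01g71630 had 48.1 ± 41.2 FPKM in SR86 FW, against 116 ± 4.90 FPKM in R1 FW (SD, n = 3 each), a log2 fold change of -1.58 ± 0.516 (SE, limma adjusted p = 0.0611). SR86 FW1, at 95.7 FPKM, stood apart from the other SR86 FW libraries in this gene. That library was also the shallowest, with the highest sums of green tissue markers and LOC_Osm1 features and the lowest of root markers. The part of these traits in the level of the gene was not tested. Without SR86 FW1 the gene was called, at -2.23 (limma adjusted p = 0.00033), as it was with quantile normalization, all 9 libraries in the fit or a replicate block (limma adjusted p 0.0438, 0.0311 and 0.0448). LOC_Os01g27160 (cullin) had 6.19 ± 1.33 FPKM in SR86 FW, against 10.3 ± 0.368 FPKM in R1 FW, a log2 fold change of -0.70 ± 0.170 (SE, limma adjusted p = 0.0263), which is under 2-fold.

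The GSTs LOC_Os10g38350 and LOC_Os09g20220 had log2 fold changes of 0.53 (SE 0.343) and 0.21 (SE 0.327). LOC_Os12g32390 was at 0.61 (SE 0.366), LOC_Os05g05100 at -0.17 (SE 0.224), LOC_Os11g14910 at -0.64 (SE 0.620) and LOC_Os02g37260 at -0.11 (SE 0.372). Without SR86 FW3, LOC_Os12g32390 was called higher in SR86 FW, at 1.02 (limma adjusted p = 0.00999). With all libraries the limma adjusted p of these 6 genes was 0.241 to 0.838, and they overlapped between SR86 FW and R1 FW. In all, 5 of the 11 genes did not overlap between the strains, against 50.9% of the features tested and 52.9% of the loci at or above the floor.

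**Figure D3:**
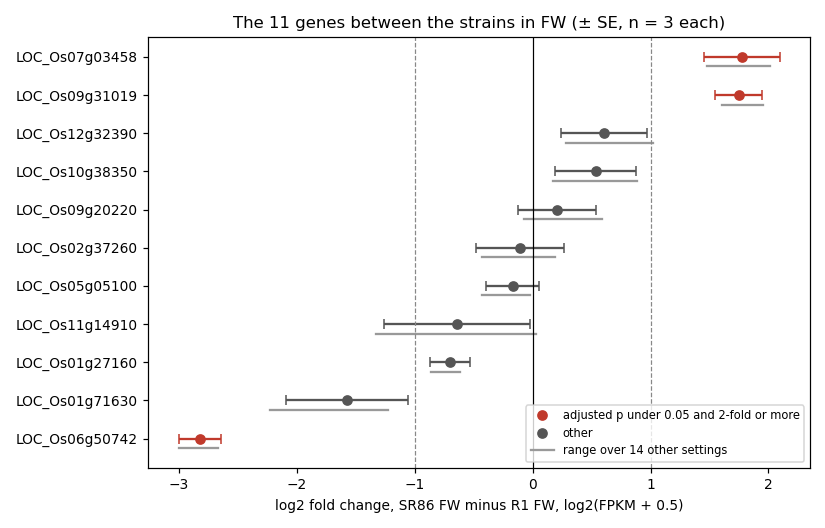
Log2 fold change of the 11 genes, SR86 FW minus R1 FW on the log2(FPKM + 0.5) scale, with the standard error (n = 3 libraries each), and below each point a grey line for its range over 14 other settings. The 3 called genes, in red, lie beyond the dashed 2-fold lines, LOC_Os06g50742 at -2.82 on the low side and LOC_Os07g03458 and LOC_Os09g31019 at 1.78 and 1.75 on the high side.

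In SR86 alone, SW against FW, the same test called all 11 genes lower, with a median log2 fold change of -4.01. The rule had fixed the direction and a large change in these libraries, so this describes the choice and tests nothing. Of all 23718 features tested, 4.29% were called lower, and the median log2 fold change was 0.17. With median-ratio size factors these medians were -4.17 and 0.02. The neighbouring loci were not chosen by the rule, and this test was used for them. It leaves out R1 FW, so a locus called lower in SW need not be low in SW alone. The 5 loci on each side of each gene, in the order of locus numbers, gave 110 loci, of which 43 were tested. This window was chosen after values had been seen. In SW, 8 of the 43 were lower and 0 higher (8.41% of all features tested were higher), and the 8 lay beside 4 of the 11 genes.

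Around the GST LOC_Os10g38350 all 4 neighbours tested were lower in SW. LOC_Os10g38340 (GST, GSTU6) had 5.22, 6.02 and 10.2 FPKM in SR86 SW1 to SW3, against 49.8, 31.4 and 21.5 FPKM in SR86 FW1 to FW3, a log2 fold change of -2.16 ± 0.361 (SE, limma adjusted p = 0.0177). LOC_Os10g38360 (GST) had 21.7, 34.2 and 70.7 FPKM in SR86 SW1 to SW3, against 263, 280 and 92.7 FPKM in SR86 FW1 to FW3, a log2 fold change of -2.32 ± 0.554 (SE, limma adjusted p = 0.0341). Both were more abundant in SW than LOC_Os10g38350. The SR86 SW and SR86 FW libraries of each did not overlap, as was so for 44.9% of all features tested. The other 2 called neighbours were LOC_Os10g38314, a GST N-terminal domain protein, at -1.49, and LOC_Os10g38278, a chloroplast 30S ribosomal protein S2, at -1.94.

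These loci lie in a longer run of 66 locus numbers with many GSTs of the tau class. Of the 32 tested there, 16 were lower in SW than in SR86 FW and 1 was higher, and LOC_Os10g38350 was the only one among the 11 genes. Without LOC_Os10g38350, which the rule chose on these libraries, 15 of 31 were lower, against 4.29% of all features tested. Among the 16, LOC_Os10g38272 and LOC_Os10g38278 had R1 FW means below their SR86 SW means, and the rest had R1 FW means above theirs. Of 16 tested loci annotated as GST, LOC_Os10g38350 included, 12 were lower. The most abundant in FW outside the 11 genes were LOC_Os10g38600 (GSTU6), with 56.3 ± 16.9 FPKM in SR86 SW and 268 ± 72.1 FPKM in SR86 FW (log2 fold change -2.25, limma adjusted p = 0.0127), LOC_Os10g38489 (GSTU6), with 61.4 ± 17.6 FPKM in SR86 SW and 207 ± 139 FPKM in SR86 FW (-1.57, limma adjusted p = 0.0608), and LOC_Os10g38360. The count of 16 depended on single libraries, with 3 called when SR86 SW1 was left out, 5 for SR86 SW2, 4 for SR86 FW2 and 8 for SR86 FW1. With no filter on low values 10 were called. GSTs of 1 run can be near-identical, and shared reads were divided between them.

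Beside LOC_Os01g71630, 2 of the 4 other tested loci of a run annotated as expressed protein were lower in SW. LOC_Os01g71590 had 0.71, 0.73 and 0.72 FPKM in SR86 SW1 to SW3, against 31.0, 1.94 and 13.3 FPKM in SR86 FW1 to FW3 (log2 fold change -3.06 ± 0.851 SE, limma adjusted p = 0.0479), and R1 FW1 to FW3 had 24.0, 21.8 and 25.01 FPKM. SR86 FW2 kept it below the floor of the rule. LOC_Os01g71620 was also lower, with 0.107 ± 0.0569 FPKM in SR86 SW and 1.36 ± 0.702 FPKM in SR86 FW (log2 fold change -1.54, limma adjusted p = 0.0319). LOC_Os01g71599 was listed at 0 in every SW library and had 2.05, 0.10 and 1.05 FPKM in SR86 FW1 to FW3, a difference that was not called (limma adjusted p = 0.0953). LOC_Os01g71624 had 1.17 FPKM in SR86 SW and 2.33 FPKM in SR86 FW on average, its libraries overlapped, and it was not called either (limma adjusted p = 0.481). Of the 5 loci of this run that were tested, LOC_Os01g71630 included, 3 were lower in SW. With a replicate block 1 was, and 1 or 2 were with any single library left out.

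Beside LOC_Os05g05100, LOC_Os05g05080 (expressed protein) had 8.0, 16.3 and 0.92 FPKM in SR86 SW1 to SW3, against 114, 52.7 and 74.9 FPKM in SR86 FW1 to FW3, and R1 FW1 to FW3 had 138, 157 and 117 FPKM. Its log2 fold change was -3.72 ± 0.854 (SE, limma adjusted p = 0.0319), and with the fold of the rule set to 3 it met the rule. The next 2 loci in that direction, LOC_Os05g05070 and LOC_Os05g05060, had log2 fold changes of -1.59 and -1.40 and were not called. Beside LOC_Os12g32390, LOC_Os12g32360 (expressed protein) was lower in SW than in SR86 FW, with a log2 fold change of -1.02 (limma adjusted p = 0.0412). Its R1 FW mean of 19.3 FPKM lay below its SW mean of 28.8 FPKM, so this locus was not low in SW alone. The adjacent LOC_Os12g32380 was at -0.42 and not called. Each of the 8 called neighbours lost its call when some single library was left out, LOC_Os12g32360 with any of the 6.

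The abundant LOC_Os02g37260 has a neighbour of like abundance, LOC_Os02g37250 (hypothetical protein). It had 372, 1265 and 1913 FPKM in SR86 SW1 to SW3, 2683, 5769 and 3526 FPKM in SR86 FW1 to FW3, while R1 FW1 to FW3 had 4926, 5285 and 4365 FPKM. The log2 fold change of SW against SR86 FW was -1.97 ± 0.631 (SE, limma adjusted p = 0.0667), so no change was called, although every SW value lay below every SR86 FW value (44.9% of the features tested had no overlap). Near LOC_Os07g03458, another SCP-like extracellular protein, LOC_Os07g03409, had 10.6, 31.8 and 20.2 FPKM in SR86 SW1 to SW3, against 35.4, 13.4 and 164 FPKM in SR86 FW1 to FW3, and these overlapped. None of the tested neighbours of LOC_Os09g31019 (8 loci), LOC_Os09g20220 (3), LOC_Os01g27160 (3) and LOC_Os11g14910 (1) was called, and the neighbours of LOC_Os06g50742 were too low to test.

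**Figure D4:**
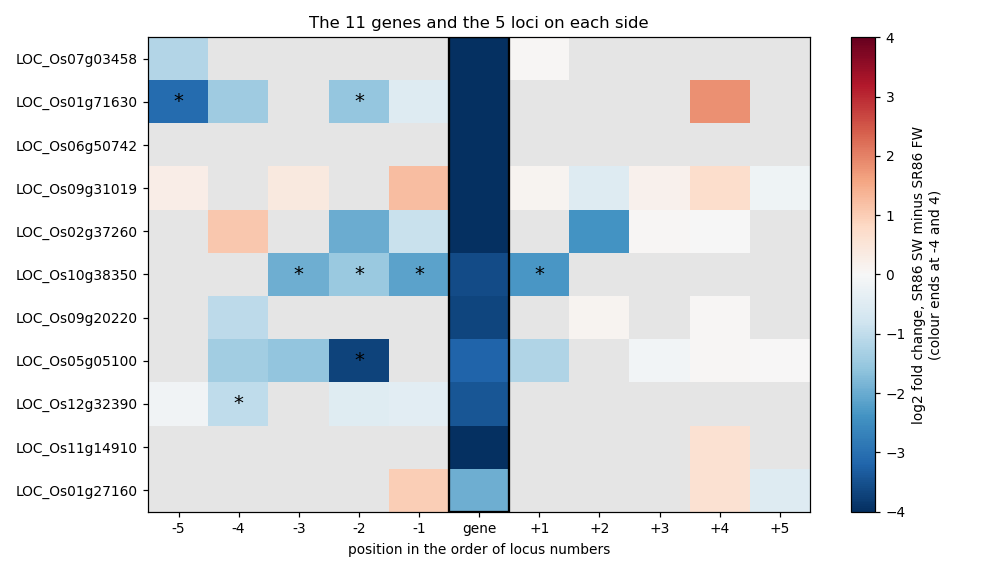
Log2 fold change of SR86 SW minus SR86 FW for the 11 genes (boxed column, rows in order of the ratio of lowest FW to highest SW value) and for the 5 loci on each side by locus number. Grey marks loci too low in the SR86 libraries to test and a star marks a called neighbour. The stars lie beside LOC_Os01g71630, LOC_Os10g38350, LOC_Os05g05100 and LOC_Os12g32390.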

How the data were processed

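RNA of 9 root samples was sequenced after stranded mRNA library preparation. Reads were quality-trimmed by the authors and aligned with Bowtie2 to transcripts of MSU6, and RSEM then gave expression estimates, sharing out reads that fit more than 1 transcript. The authors deposited FPKM values rounded to 2 decimals, 1 column per library, for 57931 features. Of these, 57624 are nuclear loci, and the organelle and pre-tRNA features held 0 further loci that meet the rule. CASAVA 1.8 is named in the submitters' processing notes. The authors' test, edgeR, needs counts and was not run. Groups follow the labels. A sentence of the study's methods places R1 in both waters and SR86 in fresh water, while the labels and the study's results place them the other way.

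The RefSeq gene table used for names held 0 of the deposited names, so no positions or sequences are shown, and annotations are those of the study's tables. These list genes that differed between the same libraries, so they are not independent evidence. The 11 genes, the gene lists and the locus runs were chosen with earlier results of these data known.

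Each test took 6 libraries and the features that averaged 0.5 FPKM or more in them. Values were log2(FPKM + 0.5), limma 3.58.1 was run in R 4.3.3 with a variance trend, and p-values were adjusted over all of them by the Benjamini-Hochberg method. A fold change on this scale understates that of low genes. Replicates are biological by the study's methods. With 3 libraries against 3, the fit across features carries the test of a single gene. Both comparisons share the 3 SR86 FW libraries. Genes were named when they belonged to a list or annotation family with at least 2 of the 11 genes, by the 10 largest ratios and the 10 highest FW means, as the 5 nearest loci on either side of each threshold, as called between the strains, and as the 3 most abundant other loci of each run. The relative depth of the libraries was read from the steps between values of 0.3 to 1.2 FPKM, since no counts were given. The fit, the rule and the depth step were tested on simulated data. The alternatives were a pseudocount of 0.1 or 1, a filter at 1 FPKM or none, quantile normalization, size factors from median ratios, 1 fit of all 9 libraries, a replicate block, each library left out, folds of 3 and 6 and floors of 2 and 10 FPKM. Python 3.11.15, pandas 2.3.3, numpy 2.4.6 and matplotlib 3.10.9 were used.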

Additional observations from a re-analysis of the deposited data

How the results depend on the processing

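The number of loci that met the rule was 11 as given, 25 with a fold of 3, 7 with a fold of 6 and 18 with a floor of 2 FPKM, and 11 to 24 with a library left out. Between SR86 FW and R1 FW, 3261 features were called, and 1646 to 4761 with a library left out (1646 without R1 FW1 and 1853 without R1 FW3). The 3 called genes of the 11 stayed called in all of these, and 3 to 4 of the 11 were called. Between SR86 SW and SR86 FW, 3012 features were called, 1804 with no filter, and 60 to 3822 with a library left out: 60 and 623 when SR86 SW1 or SW2 was left out, 358 and 983 for SR86 FW2 or FW1. Of the 11 genes, 5 to 11 were called there, with 5 without SR86 SW1, and the cause was not tested. The rule chose them on these libraries, so these counts are a description. With median-ratio size factors or quantile normalization the median of all features moved by -0.15 on the log2 scale.

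The direction of small strain differences turned for LOC_Os02g37260 (0.19 without SR86 FW1, 0.091 without R1 FW2, lowest -0.43), for LOC_Os09g20220 (-0.076 without SR86 FW1, highest 0.59) and for LOC_Os11g14910 (0.029 without SR86 FW1, lowest -1.33). LOC_Os12g43380 turned in SW against FW, to -0.11 with quantile normalization, -0.45 without SR86 SW3 and -0.14 without SR86 FW2, its highest value with a library left out being 0.54. Same-numbered libraries deviated together at correlations of -0.03, 0.22 and 0.26 between the strains and -0.06, 0.01 and 0.15 between the waters. Libraries of different numbers gave -0.36 to 0.21 between the strains and -0.19 to 0.20 between the waters. These few values do not settle whether the numbers pair the libraries. With the replicate number as a block, 3489 and 2048 features were called, with 4 and 11 of the 11 genes among them.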

Other observations

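The other runs of neighbouring loci that were listed held none of the 11 genes. Between SR86 SW and SR86 FW, 4.29% of all features tested were lower. Of the 6 loci of a GST run on chromosome 1, 5 were lower in SW, among them LOC_Os01g72150, with 52.9 ± 10.9 FPKM in SR86 SW and 268 ± 109 FPKM in SR86 FW (SD, n = 3 each, log2 fold change -2.27, limma adjusted p = 0.0125). LOC_Os01g72140 and LOC_Os01g72130 were lower as well, at -1.63 and -1.45. In a run of germin-like cupin proteins on chromosome 8, 8 of 12 tested loci were lower, led in abundance by LOC_Os08g09010 (-1.03), LOC_Os08g09060 (-1.63) and LOC_Os08g09000, with 93.4 ± 29.1 FPKM in SR86 SW and 450 ± 124 FPKM in SR86 FW (-2.26, limma adjusted p = 0.0122). Germin-like proteins are secreted to the cell wall.

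Of 8 tested loci in a thaumatin run on chromosome 12, 4 were lower, among them LOC_Os12g43430 (-2.80) and LOC_Os12g43410 (-2.68). These 2 differed in R1 FW, with means of 1188 and 13.8 FPKM, against 190 and 135 FPKM in SR86 SW. LOC_Os12g43380 averaged 2.45 FPKM in SR86 SW and 1.65 FPKM in SR86 FW, against 338 FPKM in R1 FW. In a metallothionein run on chromosome 12, 4 of 14 were lower and 1 was higher. Metallothioneins are small proteins that bind metal ions. LOC_Os12g38270 had 306 ± 123 FPKM in SR86 SW and 1662 ± 75.2 FPKM in SR86 FW (-2.52, limma adjusted p = 0.0116), LOC_Os12g38051 was at -1.76, and LOC_Os12g38300 was at -0.75 and not called. A run on chromosome 12 with annotations of mitochondrial genes had 9 of 20 lower, with LOC_Os12g34010 at -4.0, LOC_Os12g34018 (ATP synthase protein YMF19) at -3.49 and LOC_Os12g33924 at -2.57. The SR86 FW means of these 3 exceeded those of the other groups, with R1 FW means of 9.81, 6.53 and 6.57 FPKM. LOC_Os12g33924 and LOC_Os12g34062, both counted among the 9, had identical values in every library. LOC_Os12g33952 and LOC_Os12g34064, both among the 20 and not called, were identical to each other as well. The 9 and the 20 are therefore not counts of independent loci.

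These counts depended on single libraries. Without SR86 SW1 they were 2 in the GST run, 0 in the germin-like run, 0 in the thaumatin run, 1 in the metallothionein run and 0 in the mitochondrial-like run. Without SR86 FW2 they were 4, 1, 3, 1 and 0 in the same order, without SR86 SW2 4, 4, 1, 1 and 0, and without SR86 FW1 5, 6, 2, 1 and 1. Without SR86 FW3 the metallothionein run had 1, and without SR86 SW3 the mitochondrial-like run had 5. With no filter the metallothionein run had 1 and the mitochondrial-like run 5, and with quantile normalization the metallothionein run had 1.

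Of the loci that the study's tables annotate as GST, 2 of 40 were among the 11 genes, and 27 of 40 had all SW values below all FW values of both strains. This order was found in 15.4% of all 6481 nuclear loci that the study annotates there, and of the 23581 nuclear loci tested between SR86 SW and SR86 FW 7.4% had it. Loci of the ubiquitin system gave 2 of 117 (22 with all SW below all FW) and oxidoreductases 1 of 180 (39). Annotated cupins gave 0 of 20 (14 with all SW below all FW), gibberellin enzymes and regulators 0 of 21 (10), glutaredoxins 0 of 6 (5), thaumatins 0 of 16 (4), metallothioneins 0 of 10 (3), RALF peptide precursors 0 of 9 (3) and heavy metal-associated domain proteins 0 of 18 (3). Transcription factors gave 0 of 296 (86), kinases, receptors and calcium sensors 0 of 439 (37), transporters 0 of 166 (22), cytochromes P450 0 of 102 (19), proteases and their inhibitors 0 of 112 (24), glycosyltransferases 0 of 73 (12) and proteins of organelle type 0 of 145 (21). The study chose these annotated loci on the same libraries, so the shares are not independent evidence of a direction.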
